A study of Arabidopsis thaliana with 12 samples.

Results

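The 38 probe sets described here differed between the line S15-118 and wild type (wt) in the aerial parts of Arabidopsis plants, measured on ATH1 arrays, while their mean difference between the mutant aba3-1 and wt was small. A probe set on these arrays is a group of short probes that report one transcript, and its value is a log2 signal. Members were chosen from 11561 probe sets with a signal above a floor of 4 in at least 2 of the 12 arrays. S15-118 minus wt had to be at least 0.8 log2 in absolute value with the same sign in both replicate numbers, and the mean of aba3-1 minus wt had to be below 0.4 in absolute value. These thresholds were met by 45 probe sets, of which 7 were left out by name, so that 38 remained. Of these, 22 were higher and 16 lower in S15-118 than in wt. The tables at hand pair 20 of the 38 with 1 gene, 9 of them higher and 11 lower, and 18 with none. The latter are given by their probe set IDs.

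The series holds 6 groups of 2 arrays, wt, aba3-1, S14-150, S15-118, S58-2 and S82-2, with replicate numbers 1 and 2 in each. All plants were untreated and grown on compost at 21 °C with 8 h of light and 16 h of dark, and no source used here states plant age. The mutant aba3-1 is deficient in abscisic acid (ABA). The labels speak of 4 recessive suppressor mutants of aba3-1, found by thermal imaging of leaves that are cold in the parent, and the 4 S lines are taken here to be these and to carry aba3-1 as well. Nothing in the labels says whether a line was backcrossed, how many plants were pooled, or whether the replicates of a group were grown separately. The p-values therefore cover the spread among these arrays, which may be technical. Extracted RNA ranged from 5.1 µg (S58-2 replicate 2) to 15 µg per sample. In aerial tissue made of many cell types, fewer cells of a type and less RNA per cell cannot be told apart.

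ABA is made from carotenoid precursors, and its last step needs an aldehyde oxidase whose molybdenum cofactor is activated by the ABA3 protein. The hormone closes stomata, so a plant that lacks it loses more water and has cooler leaves. A suppressor line regains the warm leaf through a second mutation, and its transcripts can differ from those of both wt and the parent. A difference of 1 on the log2 scale is a doubling of the signal.

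Tissue identity was checked with marker genes. RCA, the Rubisco activase of leaf chloroplasts, lay between 12.46 and 13.36 on all 12 arrays. It was the only one of 10 leaf markers with a paired probe set. The root hair gene EXPA7 (2.11 to 2.14) and the guard cell gene FAMA (2.50 to 2.88) were under the floor on every array. BGLU23, a beta-glucosidase abundant in roots, was at 7.20 and 6.65 in S15-118 and at 5.05 and 4.63 in wt, a difference of 2.085 (limma adjusted p = 0.0612, and 0.00625 with the replicate number as a block). It was at 5.63 and 5.44 in aba3-1, 5.84 and 6.51 in S14-150, 5.99 and 4.91 in S58-2 and 6.07 and 6.74 in S82-2. Its part in the results below was not tested. The ribosomal RNA control of the array read 3.77 on S58-2 replicate 1 and between 7.19 and 9.78 on the other 11 arrays.

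The higher members with the largest changes were close to background in wt, aba3-1 and S82-2. AT1G26390 encodes an enzyme of the berberine bridge family, flavoproteins that oxidise small molecules. Its signal was 5.80 and 5.79 in S15-118 (replicates 1 and 2), 2.98 and 2.91 in wt, 3.48 and 3.18 in aba3-1, 2.97 and 4.01 in S14-150 and 3.52 and 5.06 in S58-2, while both S82-2 arrays read 2.90. The 2 S15-118 arrays were the highest of the 12, followed by S58-2 replicate 2. OSM34 encodes osmotin, a protein of the thaumatin-like pathogenesis-related class. OSM34 was at 4.62 and 5.12 in S15-118, 5.55 in S58-2 replicate 2 and 2.49 in S58-2 replicate 1. It was at 2.83 and 3.36 in S14-150 and between 2.42 and 2.63 on the 6 arrays of wt, aba3-1 and S82-2. The highest single value was thus in S58-2 replicate 2, and the other S58-2 array lay with wt.

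AT5G24240, a phosphatidylinositol 4-kinase of the gamma type with ubiquitin-like domains, had the same split. It read 4.75 and 4.96 in S15-118 and 4.57 in S58-2 replicate 2. On the other 9 arrays it lay between 2.27 and 2.31, including 2.30 in S58-2 replicate 1. AT2G44240 encodes a protein of the neprosin domain family. It was at 5.99 and 3.71 in S15-118 and at 5.27 and 3.84 in S58-2, against 2.29 to 2.41 on the 8 arrays of the other 4 groups. Here both S58-2 arrays were high, and in both lines replicate 1 exceeded replicate 2. AT5G39520 was at 4.19 and 5.32 in S15-118, 3.34 and 5.73 in S58-2, 2.77 and 2.79 in S14-150, 2.76 and 2.71 in wt, 3.14 and 2.51 in aba3-1 and 2.31 and 2.38 in S82-2.

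**Figure D1:**
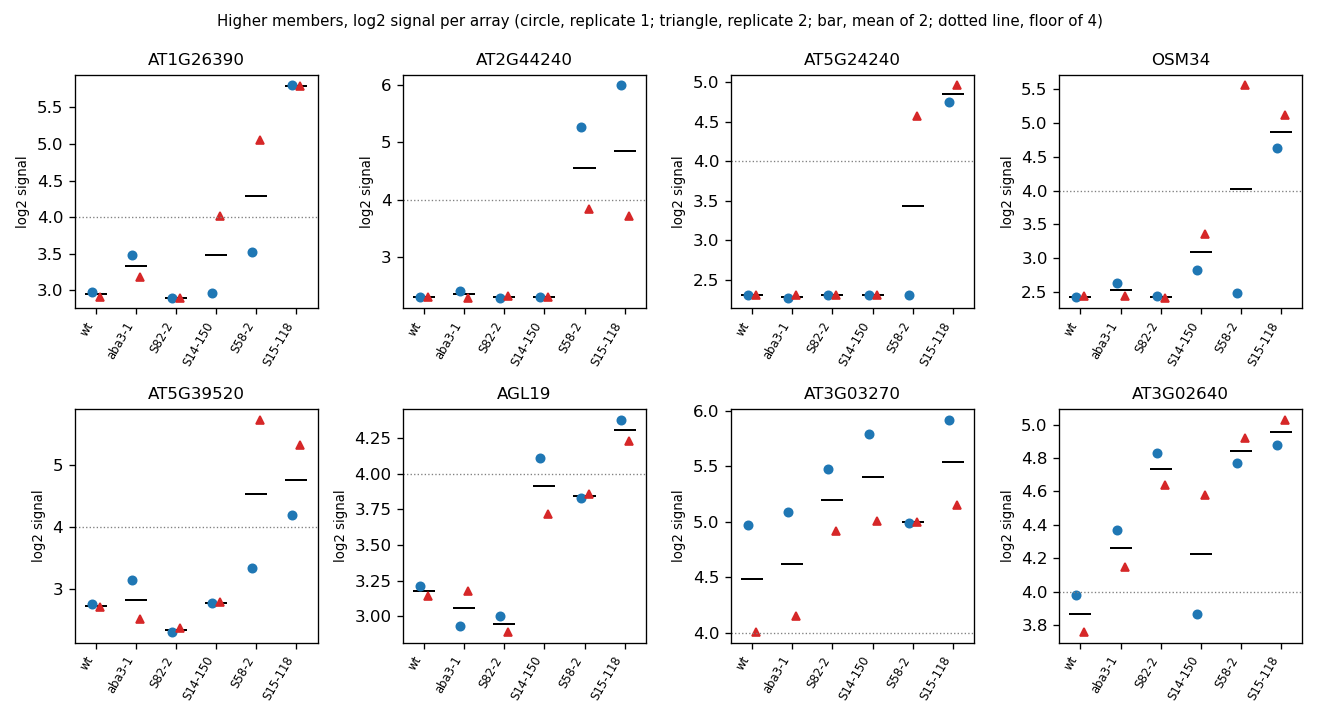
Log2 signal (y axis) of 8 higher members on each array, by group (x axis); circles are replicate 1, triangles replicate 2, bars the mean of the 2 arrays and the dotted line the floor of 4. OSM34 and AT5G24240 were above 4 in both S15-118 arrays and in S58-2 replicate 2 only, and AGL19 lay higher in S15-118, S14-150 and S58-2 than in wt, aba3-1 and S82-2.

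In AGL19, the split between groups was the same in both replicates. AGL19 encodes a MADS-domain transcription factor that promotes flowering and is activated by prolonged cold. Its signal was 4.38 and 4.23 in S15-118, 4.11 and 3.72 in S14-150, 3.83 and 3.86 in S58-2, 3.21 and 3.14 in wt, 2.93 and 3.18 in aba3-1 and 3.0 and 2.89 in S82-2. The 6 arrays of S15-118, S14-150 and S58-2 lay above the other 6, and how many of all tested probe sets do so was not counted. The rule itself set S15-118 apart from wt and kept the mean of aba3-1 near wt, so this split is a description. AGL19 also passed the filter through S15-118. All of these levels are near or under the floor.

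The other named higher members differed less from the remaining lines. AT3G03270, a universal stress protein linked to low oxygen, was at 5.92 and 5.15 in S15-118, 5.79 and 5.01 in S14-150, 5.48 and 4.92 in S82-2, 4.99 and 5.0 in S58-2, 5.09 and 4.15 in aba3-1 and 4.97 and 4.01 in wt. AT3G02640 was at 4.88 and 5.03 in S15-118, 4.77 and 4.92 in S58-2 and 4.83 and 4.64 in S82-2, and at 3.98 and 3.76 in wt, 4.37 and 4.15 in aba3-1 and 3.87 and 4.58 in S14-150. Its values in S58-2 and S82-2 lay within 0.4 log2 of those in S15-118 of the same number. AT3G02120 rose least of the named ones, from 3.53 and 3.35 in wt to 4.33 and 4.44 in S15-118, with 4.19 and 4.10 in S58-2 and 3.90 and 3.97 in S82-2. In AT3G02120 the S15-118 minus wt difference of replicate 1 was exactly 0.80, just inside the threshold.

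Of the 13 unnamed higher members, 260101_at was at 4.89 and 5.69 in S15-118, 2.4 and 5.70 in S58-2 and between 2.36 and 3.09 on the other 8 arrays. Its pattern in S58-2 was that of OSM34. The probe set 258452_at was at 8.71 and 7.40 in S15-118, 8.27 and 7.92 in S14-150, 7.58 and 7.53 in S58-2, 6.69 and 5.95 in wt, 6.87 and 6.39 in aba3-1 and 6.62 and 5.97 in S82-2. In 252415_at, the small mean difference of aba3-1 from wt was made of 2 large ones of opposite sign, 1.63 in number 1 and -0.93 in number 2, so that it met the rule without being level in aba3-1.

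The 11 named lower members include sugar transporters, organelle proteins and a transcription factor. AT1G05030, of the sugar transporter family, was at 3.29 and 3.80 in S15-118, 5.07 and 5.34 in wt, 4.57 and 5.08 in aba3-1, 4.79 and 4.74 in S14-150, 4.86 and 4.55 in S58-2 and 4.93 and 4.91 in S82-2. Both S15-118 arrays lay under all 10 others. AT1G19450, a sugar transporter of the ERD6-like group, was at 7.86 and 8.68 in S15-118 and 7.64 and 8.48 in S58-2. It was at 8.76 and 10.00 in wt, 8.34 and 9.70 in aba3-1, 8.30 and 9.42 in S14-150 and 8.30 and 9.53 in S82-2, so that S58-2 lay slightly under S15-118 in both numbers.

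AT3G60290, of the family of oxygenases that use 2-oxoglutarate and iron, was lower in S58-2 than in S15-118. It read 4.60 and 5.03 in S15-118, 4.14 and 4.24 in S58-2, 5.45 and 6.02 in wt, 4.85 and 6.06 in aba3-1, 5.99 and 5.92 in S14-150 and 5.70 and 6.05 in S82-2. AT1G15410, of the aspartate and glutamate racemase family, was at 3.84 and 5.06 in S15-118 and 4.21 and 5.01 in S58-2, against 4.82 and 5.87 in wt and 5.22 and 5.97 in S82-2. AT3G15570, of the NPH3 family of proteins that act in phototropism, was at 6.67 and 4.97 in S15-118, 6.94 and 5.03 in S58-2, 7.71 and 5.93 in wt and 7.67 and 5.99 in S82-2. In both genes the S58-2 array of each number was near S15-118, and the S82-2 array near wt.

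GIS, a zinc finger transcription factor of trichome formation, was at 3.66 and 6.24 in S15-118, 4.62 and 6.09 in S58-2, 4.53 and 6.35 in S14-150, 4.66 and 6.74 in aba3-1, 5.0 and 7.13 in wt and 5.03 and 7.16 in S82-2. AT1G23130, related to the Bet v 1 class of lipid-binding proteins, was at 8.40 and 8.82 in S15-118 and 9.68 and 9.81 in wt, and the other 8 arrays lay between 8.87 and 9.47. In AT1G23130 all 4 other mutant groups were under wt in both numbers, and S15-118 was lowest. AT5G42860, a companion protein of cellulose synthase, was at 3.47 and 2.87 in S15-118 and 4.34 and 3.7 in wt. AT5G49840, a ClpX-like subunit of an organellar protease, was at 5.44 and 4.64 in S15-118 and 6.26 and 5.5 in wt. AT1G32520 was at 4.86 and 6.07 in S15-118, while every array of the other 5 groups was higher than the S15-118 array of its number by at least 0.61.

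**Figure D2:**
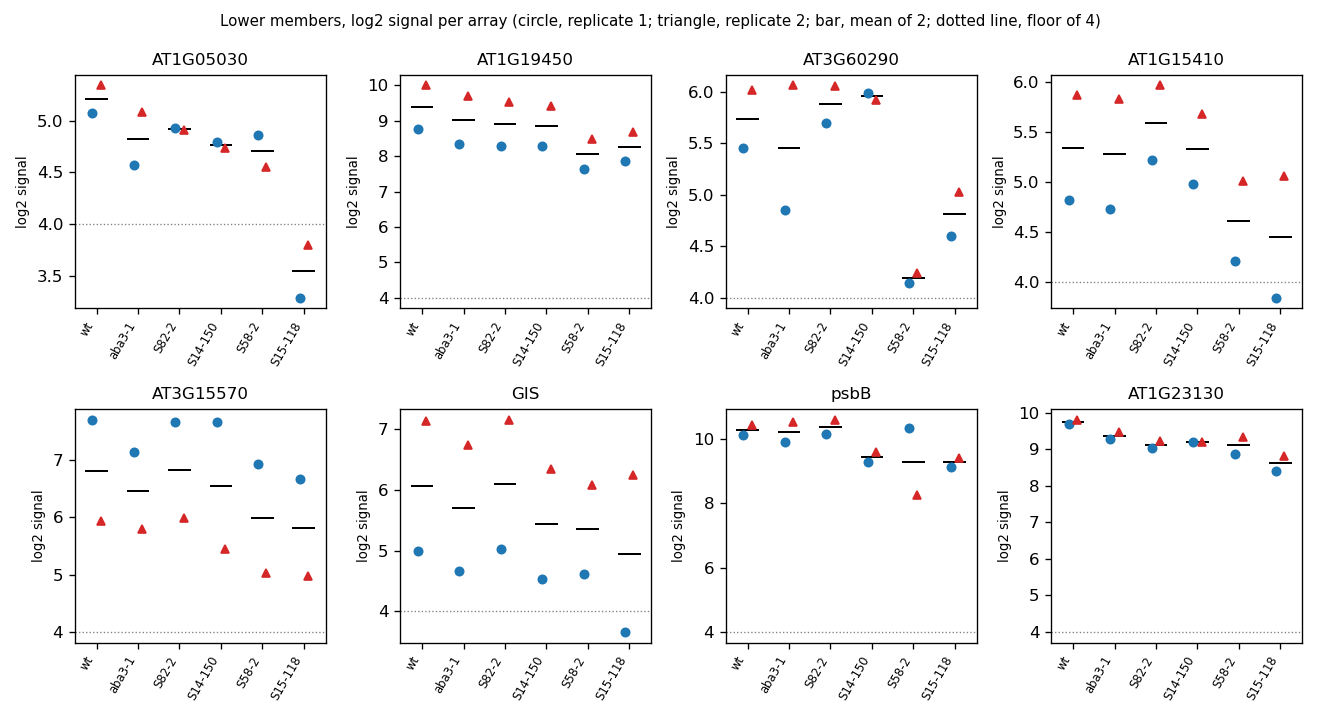
Log2 signal (y axis) of 8 lower members on each array, by group (x axis); circles are replicate 1, triangles replicate 2, bars the mean of the 2 arrays and the dotted line the floor of 4. AT1G05030 was lowest in both S15-118 arrays, while AT1G19450 and AT3G60290 were lower still in S58-2.

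The chloroplast gene psbB, which encodes the CP47 core antenna protein of photosystem II, was the only member encoded in the plastid. It was at 9.14 and 9.43 in S15-118, 9.29 and 9.59 in S14-150, 10.34 and 8.27 in S58-2, 10.13 and 10.44 in wt, 9.92 and 10.55 in aba3-1 and 10.16 and 10.61 in S82-2. S14-150 was thus nearly as low as S15-118, and the 2 S58-2 arrays lay on opposite sides of it. Of 65 plastid-encoded probe sets tested, 2 were lower in S15-118 than in wt by at least 0.8 in both numbers, psbB and ndhK. The latter missed the rule, with aba3-1 minus wt at -0.52 and -0.43. The corresponding counts were 12 in S14-150 and 1 in S58-2. Over all tested probe sets this fall was seen in 2.05% for S15-118, 0.9% for S14-150 and 2.83% for S58-2.

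Since S15-118 and aba3-1 entered the choice of members, their differences are a description. Between S15-118 and wt, limma (a linear model over all 12 arrays with Benjamini-Hochberg adjustment) called 4 of the 38 at an adjusted p under 0.05, beside 1.38% of all tested. With the replicate number as a block it called 35, beside 14.3%. The median of aba3-1 minus wt was 0.275 over the higher members and -0.332 over the lower ones, and 0.005 over all tested. limma called 0 of 38 members between aba3-1 and wt, beside 0.45% of all tested, and 0 with the block, beside 4.98%. Without and with the block, 0 and 3 members had an unadjusted p under 0.05, beside 7.41% and 19.9% of all tested. The comparisons of aba3-1 and of S15-118 with wt share the wt arrays, and both entered the rule. At the threshold, AT3G02640 (0.39) and AT1G26390 (0.385) were just inside, and AT1G05340 (0.415) just outside.

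Measured against aba3-1 itself, S15-118 differed by a median of 1.145 in the higher members and -0.742 in the lower ones. Both groups chose the members, so these values are a description. In limma 0 of 38 were called without the block, beside 0.0346% of all tested, with 57.9% of members and 1.65% of all tested at an unadjusted p under 0.05. With the block 1 was called, AGL19 (1.25), beside 0.0865%.

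**Figure D3:**
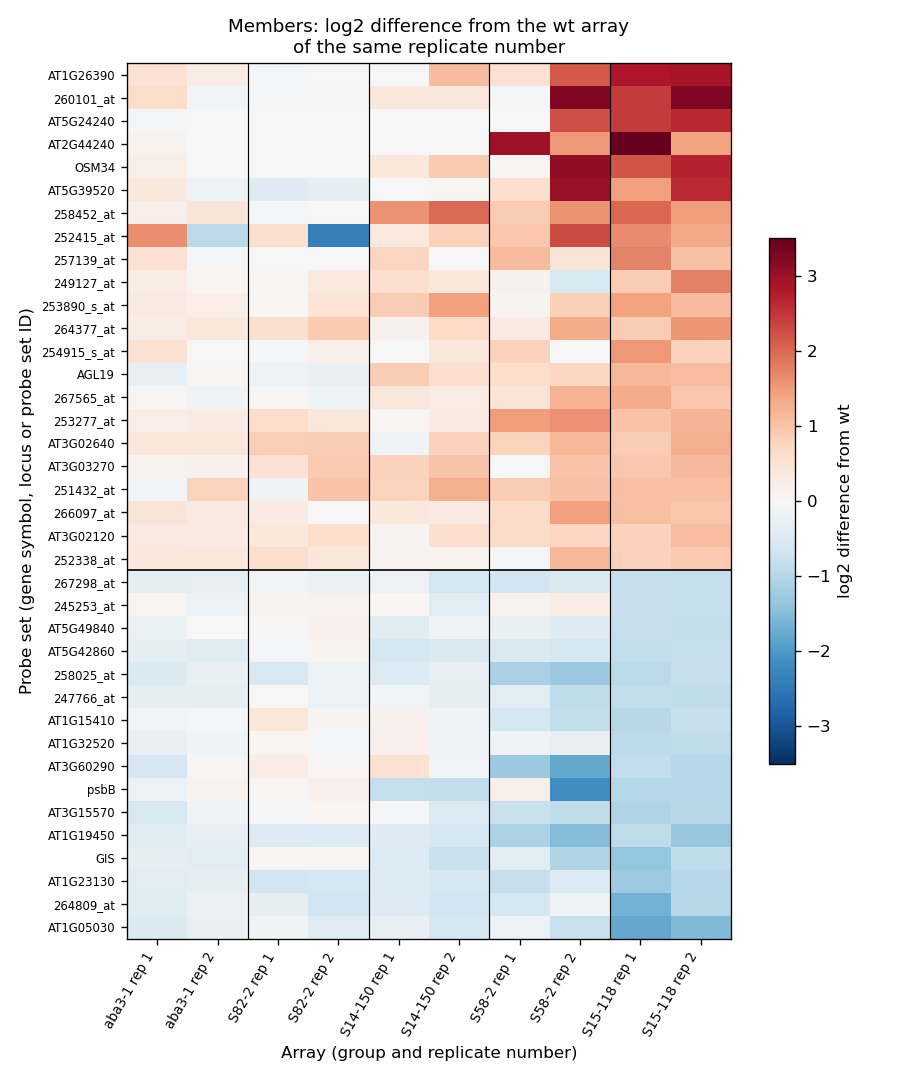
Log2 difference of each array from the wt array of the same replicate number (colour) for the 38 members (rows) on the 10 arrays outside wt (columns); the horizontal line parts the 22 higher from the 16 lower members. In most rows of higher members S58-2 replicate 2 lies further above wt than S58-2 replicate 1, and S82-2 is near wt in most rows. The wt arrays entered the rule, so these differences are a description.

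The arrays of S58-2, S14-150 and S82-2 were not used for the differences in the rule, but they counted in its filter. The differences among these 3 lines are on other material, except for 10 higher members that passed the filter through S15-118. The spread that limma sets them against was estimated over all 12 arrays, including those of the rule. Its calls and p-values are therefore not independent of the rule for any member. Between S58-2 and S82-2, the higher members were mostly higher in S58-2 (median 0.905) and the lower ones mostly lower (median -0.55), while the median over all tested was -0.045. The sign was that of S15-118 in 20 of 22 higher and 14 of 16 lower members. The median and sign count of the higher members include those 10, whose S82-2 signals were under the floor. No share of signs over all tested was counted, so the sign counts are a description. Without the block limma called 1 member, beside 2.75% of all tested (2.63% of the members). It was AGL19, 0.90 log2 higher in S58-2 (SE 0.183, n = 2 per group, adjusted p = 0.0437, blocked adjusted p = 0.00606). All 4 of these AGL19 arrays lay under the floor of 4, and AGL19 passed the filter through S15-118, with 1 array above 4 outside that line. Nothing about the members is read from this call. That call was lost when any 1 of the 4 arrays was left out, with adjusted p from 0.0883 to 0.263 in limma.

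With the block, 16 of the 38 members (42.1%) were called between S58-2 and S82-2, beside 16.2% of all tested. All 16 had the direction seen in S15-118. The spread behind these calls came in part from the arrays of the rule, so the share of members is a description. Of the higher members 9 of 22 were higher, beside 8.42% of all tested called higher, and of the lower members 7 of 16 were lower, beside 7.81%. Of the 22 higher members, 10 had only 1 array above 4 outside S15-118 and so passed the filter through that line, among them 5 of the 9 called. Without these 10, the counts were 4 of 12 higher members, beside 8.32% of the 11448 probe sets above 4 in at least 2 arrays outside S15-118, and the same 7 of 16 lower ones, beside 7.89%. This split was added after seeing the data. The called higher genes with a name were AT2G44240 (2.25, SE 0.507, blocked adjusted p = 0.0144), AT5G39520 (2.19, blocked adjusted p = 0.0244), AT1G26390 (1.39, blocked adjusted p = 0.0363) and AGL19. Both S82-2 arrays were under the floor in all 4, at 2.29 to 3.0, so that the sizes are differences from a signal near background, and all but AT1G26390 passed the filter through S15-118. The called lower genes were AT3G60290 (-1.685, SE 0.258, blocked adjusted p = 0.00207), AT1G15410 (-0.985, blocked adjusted p = 0.00392), AT1G19450 (-0.855, blocked adjusted p = 0.00876), AT3G15570 (-0.845, blocked adjusted p = 0.0158) and AT5G42860 (-0.56, blocked adjusted p = 0.0238). GIS just missed (-0.74, blocked adjusted p = 0.0505). Without the block the adjusted p of these genes other than AGL19 ranged from 0.0676 in AT3G60290 to 0.922 in GIS.

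How far these counts rest on single arrays was examined by leaving each out in turn. With the block the 16 became 22 without S58-2 replicate 1, beside 22.9% of all tested, and 7 without S58-2 replicate 2, beside 12.3%. It was 6 without S82-2 replicate 1, beside 6.0%, and 5 without S82-2 replicate 2, beside 6.92%. The share of all tested thus moved with the members' count. AT3G60290 and 253277_at were called in all 4 of these fits. In number 1, 8 of the 22 higher members were at least 0.8 above S82-2 in S58-2, beside 6.93% of all tested. In number 2, 12 were, beside 8.67%. For the lower members the counts were 2 of 16 in number 1, beside 5.29%, and 7 of 16 in number 2, beside 7.78%. The medians of S58-2 minus S82-2 were 0.37 and 1.095 in the higher members and -0.40 and -0.685 in the lower ones, in numbers 1 and 2. The counts and medians of the higher members include the 10 that passed the filter through S15-118. Among these 10, AT2G44240, AT5G39520 and AGL19 were past 0.8 in both numbers. Nothing about the higher members is therefore read from these counts and medians. The larger shares were thus in number 2, for the members and for all tested. These differences use both the S58-2 and the S82-2 array of number 2. S58-2 replicate 2 was the sample with the least extracted RNA, while S58-2 replicate 1 had the low ribosomal RNA control. The part of either in the result was not tested.

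**Figure D4:**
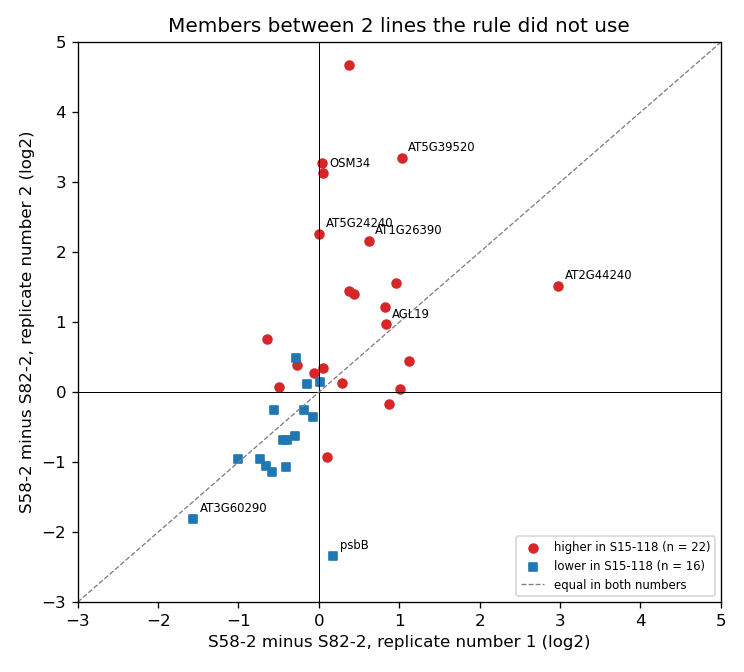
S58-2 minus S82-2 in replicate number 1 (x axis) and number 2 (y axis), both in log2, for the 22 members higher in S15-118 (red circles) and the 16 lower (blue squares); the dashed line marks equal values. AT2G44240 and AT3G60290 differ in both numbers, while OSM34, AT5G24240 and psbB lie near 0 in number 1 and differ by 3.13, 2.26 and -2.34 in number 2.

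The floor bears on the higher members in particular. In 13 of the 22, all 6 arrays of wt, aba3-1 and S82-2 were under 4, and a signal at background has no room to fall. Of these 13, S15-118 was above 4 in 13 and 11 in numbers 1 and 2, S58-2 in 5 and 7, and S14-150 in 3 and 2. For 10 of the 38 members fewer than 2 arrays outside S15-118 were above 4, so that they passed the filter through S15-118. The lower members are less affected, since 14 of 16 were above 4 in both wt arrays. The members were chosen for large differences among other arrays of the series, and their shares were not set against probe sets of equal spread.

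Against wt, whose arrays entered the rule, the blocked fit called 23 of 38 members in S58-2, beside 22.7% of all tested. The wt arrays are shared with the rule, so nothing is read from this count. Without the block 2 were called, beside 3.23%: the unnamed 253277_at, higher by 1.53, and 258025_at, lower by a difference of -1.225 (adjusted p = 0.0115 and 0.0259).

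Between S14-150 and S82-2 the median difference was 0.332 in the higher members and -0.197 in the lower ones, beside -0.005 in all tested. The sign was that of S15-118 in 17 of 22 higher and 13 of 16 lower members. These counts include differences close to none, such as 0.005 in AT5G24240 and in AT2G44240, -0.02 in 258025_at and -0.055 in AT1G19450. No share of signs over all tested was counted, so the sign counts are a description. The blocked fit called 2 members (5.26%), both higher, beside 1.61% of all tested. They were 258452_at (1.8, SE 0.249, blocked adjusted p = 0.00893) and AGL19 (0.97, SE 0.169, blocked adjusted p = 0.0209). AGL19 passed the filter through S15-118. Over the 28 members that passed it without S15-118, 1 was called, beside 1.61% of the 11448 such probe sets. The calls of 258452_at and AGL19 were lost in limma without the block (adjusted p = 0.521 and 0.229), where 0 members were called, beside 0.0259% of all tested. In that fit 2 members (5.26%) had an unadjusted p under 0.05, beside 4.39% of all tested. The 2 blocked calls did not hold when any 1 of the 4 arrays was left out. Against wt, shared with the rule, the medians in S14-150 were 0.392 and -0.397. The blocked fit called 2 members there, 258452_at and 253890_s_at, beside 1.39%, and the fit without the block 0, beside 0.0605%. In the latter limma fit 4 members (10.5%) had an unadjusted p under 0.05, beside 5.85% of all tested. OSM34 was 0.39 and 0.94 above S82-2 in numbers 1 and 2. AT5G24240, AT2G44240 and AT5G39520, which were high in S15-118, lay within 0.08 of wt in both numbers in S14-150.

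Directly compared, S58-2 and S14-150 differed in 6 members in the blocked fit, beside 5.34% of all tested, and in 0 without the block, beside 0.13%. In the limma fit without the block, 6 members (15.8%) had an unadjusted p under 0.05, beside 7.85% of all tested. AT2G44240 was 2.245 higher in S58-2 (blocked adjusted p = 0.0331) and 253277_at 1.345 higher (blocked adjusted p = 0.00238). AT2G44240 passed the filter through S15-118, and both of its S14-150 arrays read 2.31, near background. Over the 28 members that passed the filter without S15-118, the blocked fit called 5, beside 5.35% of the 11448 such probe sets. AT3G60290 (-1.765, blocked adjusted p = 0.00598), AT1G19450 (-0.80, blocked adjusted p = 0.0279), AT1G15410 (-0.72, blocked adjusted p = 0.0393) and 258025_at (-0.84, blocked adjusted p = 0.0193) were lower. The count of 6 was 0 without S14-150 replicate 1, 2 without S14-150 replicate 2 and 16 without S58-2 replicate 1, beside 0.329%, 0.856% and 12.4% of all tested.

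**Figure D5:**
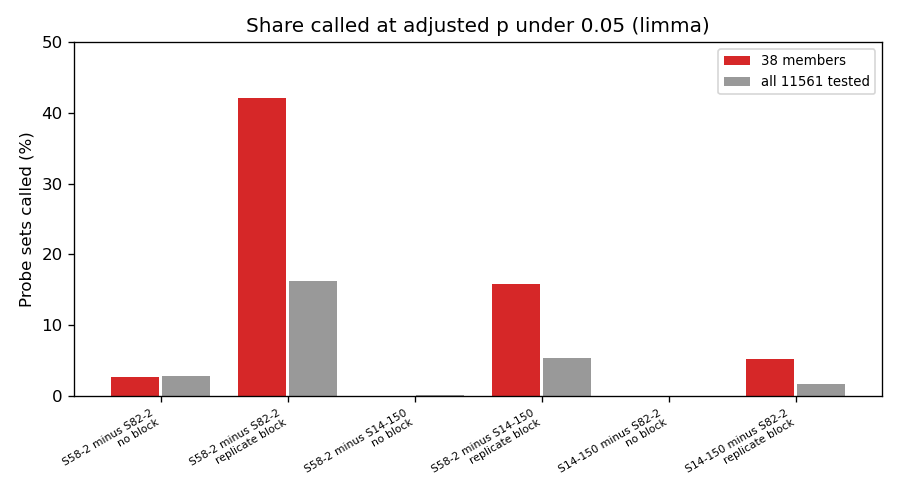
Percent of probe sets called at an adjusted p under 0.05 in limma (y axis, from 0) among the 38 members (red) and all 11561 tested (grey), for 3 comparisons of lines, each without and with the replicate number as a block (x axis). With the block 42.1% of members and 16.2% of all were called between S58-2 and S82-2, and without it 2.63% and 2.75%. The spread was estimated over all arrays, including those of the rule.

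The median difference of S82-2 from wt was 0.027 over the higher and 0.015 over the lower members. Neither fit of limma called a member between S82-2 and wt, beside 0.00865% of all tested called without the block and 0.467% with it, and 5 and 8 members had an unadjusted p under 0.05 without and with it. These are 13.2% and 21.1% of members, beside 3.27% and 12.0% of all tested. The wt arrays are shared with the rule, so nothing is read from these shares. The absence of calls does not show equal levels, since AT3G02640 was 0.85 and 0.88 above wt in S82-2, AT3G03270 0.51 and 0.91 above, and AT1G23130 0.66 and 0.58 below (differences of -0.66 and -0.58).

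Some other features of the members are given as a description. Level is tied to the rule, since its filter uses the signal and the 12 arrays include those that chose the members. The higher members had a median level of 3.85 over the 12 arrays and the lower ones 5.93, beside 5.71 for all tested. The median absolute difference between replicate numbers was 0.443 in the members and 0.28 in all tested, and 7 members differed by at least 0.8, as did 14.4% of all tested. The largest such differences among named members were in GIS (2.04) and AT3G15570 (-1.77), each larger than its change in S15-118. Of the 20 named members, 6 lie on chromosome 1, 1 on chromosome 2, 6 on chromosome 3, 2 on chromosome 4 and 4 on chromosome 5, per the RefSeq gene table of TAIR10.1. Of all tested probe sets with 1 gene, these chromosomes hold 25.8%, 14.3%, 20.6%, 14.2% and 23.9%. Those on chromosome 1 were 5 lower and 1 higher. The higher genes AT3G02120, AT3G02640 and AT3G03270 have 57 and 68 protein-coding genes between them, and none of the 20 neighbours another directly. Such distances were not counted for other tested genes.

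Other genes of stress pathways were examined from lists that few probe sets could fill. Of 16 salicylate-linked defence genes 3 were tested, WRKY53, CHI and GRX480. In S58-2 minus S82-2, CHI, a putative chitinase, was 5.69 higher (adjusted p = 0.00659) and WRKY53, a senescence regulator, 3.665 higher (adjusted p = 0.00210), and the blocked fit added the glutaredoxin gene GRX480 (1.5, adjusted p = 0.0947, blocked adjusted p = 0.00449). Of 13 cold-response genes 4 were tested, and the block, which called 16.2% of all tested, called COR15A (-1.34, blocked adjusted p = 0.000636) and COR15B (-1.285, blocked adjusted p = 0.00463) lower and STZ, a zinc finger repressor, higher (2.11, blocked adjusted p = 0.0143). Without the block these calls were lost, with adjusted p = 0.754, 0.79 and 0.373 in limma. The other cold gene, COR47, was at -0.71 (blocked adjusted p = 0.0895). Of 12 jasmonate-linked genes 2 were tested, and the block called THI2.2, a thionin, lower (-0.97, adjusted p = 0.0965, blocked adjusted p = 0.0124) and not PDF1.2 (0.86, blocked adjusted p = 0.201). Of 18 clock genes CCL (1.265, adjusted p = 0.904, blocked adjusted p = 0.0139) and GI (0.135, blocked adjusted p = 0.680) were tested, and of 11 ABA-responsive genes only XERICO (-0.105, blocked adjusted p = 0.810). Of 11 mitochondrial stress genes the 2 tested were left out of the members by name.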

How the data were processed

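RNA of aerial parts was amplified, and 20 µg of it was labelled for each array, per the labels' protocols. The authors' deposited table holds log2 signals, 1 per probe set and array. GCRMA is the tool that the submitters' processing notes name, and no source used here states its version. Base 2 was inferred from the range of the values. The 64 array controls were removed from the 22810 probe sets. By GEO's platform annotation 13513 have 1 gene, 8730 have none and 503 have several, and symbols were updated by gene ID from RefSeq's table.

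Group means were fitted over 12 arrays with limma 3.58.1 in R 4.3.3 (tables and figures: Python 3.11.15, pandas 2.3.3, matplotlib 3.10.9), adjusted over all 11561 tested, and the fit was tested on simulated data. The number of arrays limits the precision. Replicate numbers were taken as pairing the arrays across groups: deviations from group means correlated in all 15 pairs of groups (r between 0.708 and 0.872), and the best match of each of the 12 arrays had its own number. The fit without the block is the primary result, and the blocked fit stands beside it. Alternatives changed the filter, the normalization, the thresholds and the arrays included.

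The members, lists and comparisons were chosen with earlier results of these data known. Named genes are those with the 10 largest S15-118 differences per direction, the calls between S58-2 and S82-2, the probe sets next to the thresholds and members of the lists. AT5G49840, ndhK, GRX480, COR47, PDF1.2, GI and the probe sets without a gene that are not at a threshold were added with their values in view. Keyword classes of function found no class with 3 members, since the gene tables hold no descriptions, and floral and seed markers had no paired probe set.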

Additional observations from a re-analysis of the deposited data

Results flagged for a closer look

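AGL19 was the only member called between S58-2 and S82-2 in the limma fit without the block, and 1 of 38 (2.63%) is below the 2.75% of all tested. Relative to wt the difference was 0.67 in S58-2 and -0.23 in S82-2, and the test between the lines gave 0.90 (adjusted p = 0.0437, range 0.00606 to 0.263 over the alternatives run). All 4 arrays were under the floor of 4 (3.83 and 3.86 in S58-2, 3.0 and 2.89 in S82-2), and AGL19 passed the filter through S15-118. For the other 37 members a missed threshold does not show equal levels.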

How the results depend on the processing

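The number of members was 38, 14 with a threshold of 1.0 for S15-118, 12 with a threshold of 0.2 for aba3-1, and 107 when the threshold of 0.8 applied to the mean of both replicate numbers, a reading chosen after seeing the data. The stricter filter (27) and quantile normalization (37) changed it less. Members called with the replicate block against without were 16 and 1 for S58-2 minus S82-2, 6 and 0 for S58-2 minus S14-150, 2 and 0 for S14-150 minus S82-2, 23 and 2 for S58-2 minus wt, 2 and 0 for S14-150 minus wt, 35 and 4 for S15-118 minus wt and 1 and 0 for S15-118 minus aba3-1, and both were 0 for S82-2 and aba3-1 minus wt. With the filter at 5, S58-2 minus S82-2 had 0, since AGL19 was then not tested, and S15-118 minus wt had 2. Over all tested at that filter, 263 and 140 were called. Leaving out 1 array without the block gave 0 to 7 members for S58-2 minus S82-2 (7 without S58-2 replicate 1), 0 to 3 for S58-2 minus S14-150, 0 to 8 for S58-2 minus wt and 0 to 1 for S15-118 minus wt. With the block, such fits, chosen after seeing the data, moved the counts of all 3 comparisons among lines. The 107 members by the mean had 29 blocked calls for S58-2 minus S82-2, beside 16.2% of all tested, and 10 for S58-2 minus S14-150, beside 5.34%. Over all tested, the blocked and unblocked counts were 1877 and 318 for S58-2 minus S82-2, 617 and 15 for S58-2 minus S14-150 and 186 and 3 for S14-150 minus S82-2. Direction turned in S58-2 minus S82-2 for 266097_at (0.91, and from -0.605 without S58-2 replicate 2 to 2.425 without S58-2 replicate 1, with -0.065 without S82-2 replicate 1) and for AT3G15570 (-0.845, and from -1.8 without S58-2 replicate 1 to 0.11 without S58-2 replicate 2), in fits without the block. In these fits the replicate numbers are unequal between the groups, and both members differ between the numbers by over 1.5 log2. Over the 28 members above 4 in at least 2 arrays outside S15-118, also counted after seeing the data, the calls with and without the block were 11 and 0 for S58-2 minus S82-2, 5 and 0 for S58-2 minus S14-150 and 1 and 0 for S14-150 minus S82-2. Of the 11448 probe sets of that filter, 16.2% and 2.77%, 5.35% and 0.131%, and 1.61% and 0.0262% were called in these fits.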
